A study of Mus musculus with 16 samples.

Results

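Proteasome subunit genes were taken as every gene symbol that begins with Psma, Psmb, Psmc, Psmd or Psme followed by a digit, without Psmc3ip-like names and pseudogenes. Of 24982 entries in the table, 44 symbols matched. The 43 with 160 or more counts summed over all libraries were kept. Psmb11, the catalytic subunit of the thymus, had 4 counts in all 16 libraries together and was left out. All 43 members passed the filter on low counts, so they are 43 of the 13775 genes tested.

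RNA of the left ventricle was sequenced in 16 C57BL/6 mice, with 1 library for each. Knockout mice were labelled Tln2-null with a Tln1-specific CF knockout (8 mice, 4 females and 4 males). They were set against Tln2-null mice (8 mice, 4 females and 4 males). CF is not spelled out in the labels, and in heart studies it usually stands for cardiac fibroblasts. All 16 mice had received tamoxifen by intraperitoneal injection for 5 days and, after a pause of 2 weeks, the hormone angiotensin II (AngII) by osmotic pump over 8 weeks. AngII raises blood pressure and loads the heart. Every mouse was thus labelled null for Tln2 and had both agents, and no untreated or wild-type mice were among the samples. The sources used here do not name the driver of the Tln1 deletion, the deleted exons or the ages. Tln1 and Tln2 encode talins, which tie integrins to the actin cytoskeleton.

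The proteasome is the protease that degrades proteins tagged with ubiquitin. Its 20S core is a stack of rings, in which outer alpha rings gate the entry and inner beta rings hold the catalytic sites. The 19S regulatory particle binds ubiquitin chains and unfolds substrates with a ring of ATPases, and other activators (PA28, PA200) can cap the core instead. Interferon induces 3 alternative catalytic subunits, encoded by Psmb8, Psmb9 and Psmb10. They replace the constitutive Psmb5, Psmb6 and Psmb7 in newly assembled cores, and the resulting immunoproteasome favours peptides for presentation on MHC class I. In the heart, the ubiquitin-proteasome system turns over sarcomere and signalling proteins, and immune cells as well as cardiomyocytes can hold immunoproteasomes.

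Library totals ran from 11161766 to 19221673 counts. Levels are CPM, counts brought to a common library total after TMM scaling. A count of 0 would allow up to 0.151 to 0.268 CPM (3 counts, counting error only). The 8 cardiomyocyte markers summed to between 40898 and 49016 CPM in knockout ventricles and between 41840 and 46748 CPM in Tln2-null ventricles, so the tissue label and its defining markers went together. Tln1 transcripts averaged 274 ± 31.3 CPM in knockout and 289.0 ± 20.7 CPM in Tln2-null ventricles (SD, n = 8 each; edgeR adjusted p = 0.942) and Tln2 transcripts 67.1 ± 2.32 CPM in knockout and 66.8 ± 7.25 CPM in Tln2-null ventricles (adjusted p = 0.997). These whole-gene counts of bulk tissue check little of either deletion. In 4 of 8 females (3 knockout, 1 Tln2-null), Y-linked counts exceeded 1 percent of the male mean, so some results are given without them too. Replicate 2 is then the only knockout female left, so results within females are not given without them.

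The genes that define the immunoproteasome and their constitutive counterparts are shown first by their promoter windows, because regulation by interferon or by the stress factor NRF1 is read at the promoter. Each window holds 250 bases before and 50 bases after the RefSeq start (GRCm38.p6), 300 bases in all, written 5′ to 3′ along the gene's strand. Psmb8 (chr17:34197945-34198244, plus strand) and Psmb9 (chr17:34187281-34187580, minus strand) lie in the MHC class II region of chromosome 17. Psmb10 lies at chr8:105938343-105938642 (minus strand), Psmb5 at chr14:54617946-54618245 (minus strand) and Psmb6 at chr11:70525107-70525406 (plus strand). Capitals mark a match to a searched motif on either strand.
Psmb8: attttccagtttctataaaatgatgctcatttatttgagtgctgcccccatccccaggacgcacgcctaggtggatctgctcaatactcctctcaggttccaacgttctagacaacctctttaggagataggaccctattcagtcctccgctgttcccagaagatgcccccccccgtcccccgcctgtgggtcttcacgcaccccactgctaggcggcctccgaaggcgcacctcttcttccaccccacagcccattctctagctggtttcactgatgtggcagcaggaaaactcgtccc
Psmb9: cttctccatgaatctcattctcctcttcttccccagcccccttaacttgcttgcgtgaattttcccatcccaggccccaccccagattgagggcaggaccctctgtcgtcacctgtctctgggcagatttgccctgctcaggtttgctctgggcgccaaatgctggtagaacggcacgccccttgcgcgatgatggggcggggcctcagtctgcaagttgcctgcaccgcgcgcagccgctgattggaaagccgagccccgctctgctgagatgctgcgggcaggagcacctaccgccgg
Psmb10: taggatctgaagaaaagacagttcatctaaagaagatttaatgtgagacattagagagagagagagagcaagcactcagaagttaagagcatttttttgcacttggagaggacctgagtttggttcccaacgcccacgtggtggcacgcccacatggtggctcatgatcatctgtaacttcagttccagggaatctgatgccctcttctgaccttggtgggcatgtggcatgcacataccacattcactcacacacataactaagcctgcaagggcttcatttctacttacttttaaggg
Psmb5: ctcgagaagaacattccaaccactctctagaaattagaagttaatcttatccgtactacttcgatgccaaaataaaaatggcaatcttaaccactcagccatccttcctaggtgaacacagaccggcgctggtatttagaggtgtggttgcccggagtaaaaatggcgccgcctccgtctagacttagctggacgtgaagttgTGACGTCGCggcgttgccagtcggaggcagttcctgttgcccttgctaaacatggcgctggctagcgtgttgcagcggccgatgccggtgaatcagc
Psmb6: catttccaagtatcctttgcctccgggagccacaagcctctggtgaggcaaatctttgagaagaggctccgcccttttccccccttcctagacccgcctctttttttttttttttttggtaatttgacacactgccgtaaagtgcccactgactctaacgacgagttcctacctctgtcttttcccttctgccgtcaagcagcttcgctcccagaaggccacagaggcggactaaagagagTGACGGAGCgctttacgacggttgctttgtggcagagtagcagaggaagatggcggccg

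A pair of short motifs was searched on both strands of all windows. The antioxidant response element core, TGACNNNGC, which NRF1 can bind, stood 47 bases before the start of Psmb5 and 9 bases before that of Psmb6. Psmc6, Psmd12, Psmd9 and Psme4 held it as well. The 36 members with an entry have 39 windows, of which 6 held it (15.4 percent), against 12.4 percent of all 32851 windows. The interferon-stimulated response element core, taken as a pair of GAAA blocks with 2 bases between them, was in the windows of Psmb3, Psmd4, Psmd9 and Psme1 (4 of 39 windows, 10.3 percent), against 3.44 percent of all windows. Psmb8, Psmb9 and Psmb10 held neither motif, which says only that these letters are not in those windows. Each window shown holds at most 1 match, so no matches overlap in them. Psmb7 is named only.

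To rank genes against each other, levels were divided by the length of 1 principal GENCODE transcript. The order turns with the length chosen. Psmb7, which carries the trypsin-like site, led with 208.9 ± 11.98 CPM per kilobase (SD over 16 mice), followed by the ATPase gene Psmc3 with 190.9 ± 12.8 and Psmb6, which carries the caspase-like site, with 184.6 ± 14.2 CPM per kilobase. Psme1, a subunit of the activator PA28, came next at 164.5 ± 22.4 CPM per kilobase. Psmb5, which carries the chymotrypsin-like site, had 84.3 ± 14.9 CPM per kilobase. By role, the median was 184.6 for the constitutive catalytic subunits, 124 for the structural beta subunits and 89.4 for the alpha ring. It was 100.1 for the 19S ATPases and 76.3 CPM per kilobase for the other 19S subunits. With the union of all annotated exons as length, Psma6 (132.1), Psmc3 (119.8) and Psmc1 (109.3 CPM per kilobase) came first, and Psmb5, Psmb6 and Psmb7 took ranks 7, 9 and 11. The medians by role were then 78.7 for the constitutive catalytic subunits, 74.05 for the 19S ATPases, 62.05 for the structural beta subunits, 47.8 for the alpha ring and 37.8 CPM per kilobase for the other 19S subunits. In the transcript-based order of all 43 members, 33 of 42 neighbouring pairs differed by less than the larger SD of the pair.

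The immunoproteasome genes were expressed in every ventricle, at lower levels per length than the constitutive subunits they replace. Psmb10 had 53.3 ± 8.26 CPM per kilobase, a level that did not differ from its neighbours Psmd13 and Psmd14 beyond the spread. Psmb8 had 12.6 ± 1.54 and Psmb9 7.12 ± 1.01 CPM per kilobase, close to the 19S assembly chaperones Psmd5, Psmd9 and Psmd10 (6.19 to 12.04 CPM per kilobase). Psmb8 was within the spread of Psmd10, and Psmb9 within that of Psme2b and Psmd5. On the other strand, Gm26745 overlaps 25.5 percent of the exon bases of Psmd9 and Sirt3 10.1 percent of those of Psmd13. Whether counting used strand is not stated, so the levels of Psmd9 and Psmd13 are uncertain. The lowest member was Psma8, the alpha subunit of male germ cells, with 0.664 ± 0.238 CPM per kilobase. Set against its own counterpart within each mouse and per length, Psmb8 was 15.6 ± 4.10 percent of Psmb5, Psmb9 3.88 ± 0.617 percent of Psmb6 and Psmb10 25.5 ± 3.51 percent of Psmb7 (SD, n = 16). These percentages depend on the transcript length used, and that of Psmb8 also on the counts of Psmb5, which are uncertain (given below). With exon unions, the levels were 6.08 for Psmb8, 2.63 for Psmb9 and 41.0 for Psmb10, against 84.3 for Psmb5, 78.7 for Psmb6 and 70.8 CPM per kilobase for Psmb7. Psmd13 then had 32.6, Psmd14 26.5, Psmd10 11.7, Psme2b 7.26 and Psmd5 3.76 CPM per kilobase. The levels given above as within the spread of these genes are thus so with the transcript length only.

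**Figure D1:**
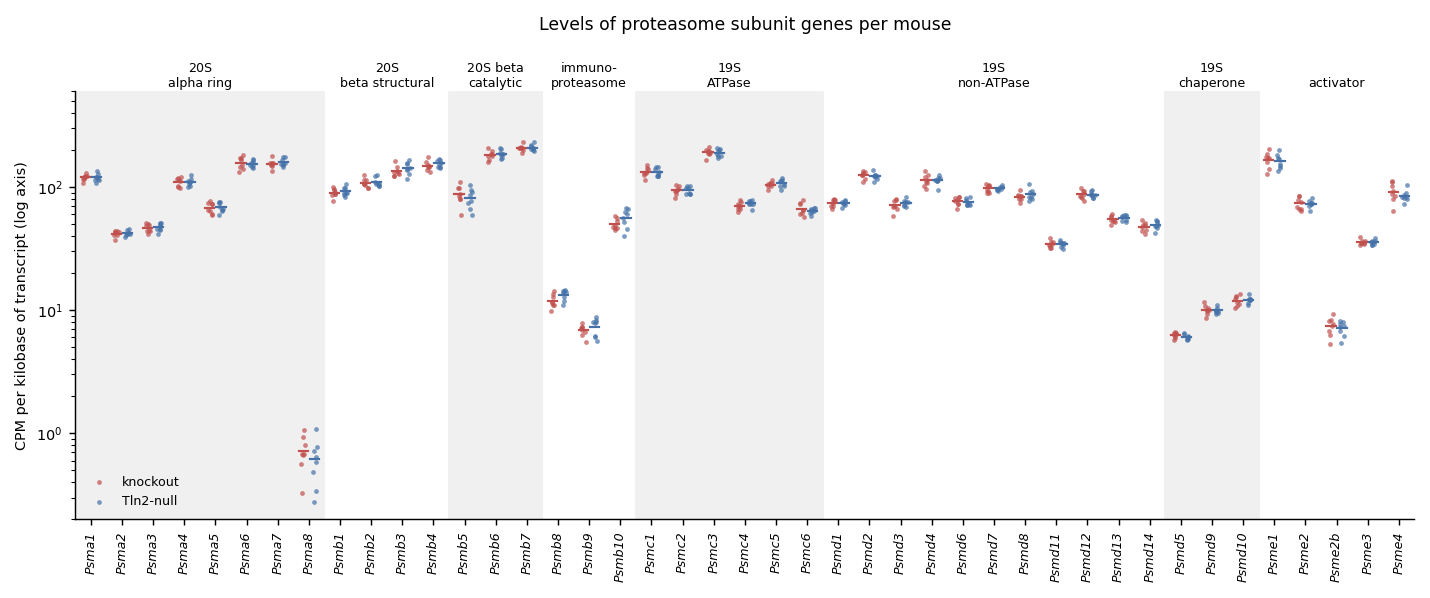
Level of each of the 43 genes in every mouse, in CPM per kilobase of transcript on a log axis, grouped by role. Points are mice (8 knockout left of 8 Tln2-null for each gene) and short lines are group means. Means over the 16 mice run from 208.9 in Psmb7 down to 34.4 CPM per kilobase in Psmd11. Below it lie Psmb8 (12.6), Psmd10 (12.04), Psmd9 (10.01), Psme2b (7.26), Psmb9 (7.12), Psmd5 (6.19) and Psma8 (0.664). The step below Psmd11 depends on the length used: with exon unions Psmd11 had 15.35, Psmd10 11.7 and Psmb8 6.08 CPM per kilobase.

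Between genotypes, the comparison that the design states, the summed levels of the members were nearly equal. Their sum was 5859 ± 378 CPM in knockout and 5852 ± 319 CPM in Tln2-null ventricles (SD, n = 8 each). They took 0.582 ± 0.0289 percent of all counts in knockout and 0.588 ± 0.0313 percent in Tln2-null ventricles. No member passed in edgeR (0 of 43), where 0 percent of the 13775 genes passed. At an unadjusted p under 0.05 there was again no member (0 of 43), against 700 genes or 5.08 percent of those tested. DESeq2 also called 0 members while calling 17 genes, and limma on the deposited normalized values called 0 members and 0 genes. On the log2 scale, 19 members were higher and 24 lower, and of all genes tested 48.8 percent were higher and 51.2 percent lower. The median difference was -0.005 over members and -0.003 over all genes tested.

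The precision of this result can be read from the intervals. For 42 of the 43 members the 95% interval of the fold change lay within 1.5-fold in both directions, and Psma8 was the exception. Of all genes tested, 85 percent had such an interval. Within 1.2-fold lay the intervals of 36 members, against 49.6 percent of all genes. Of the members, 39 of 43 stood at 20 CPM or more on average, against 7402 of all 13775 genes tested. In bulk tissue, fewer cells of a type and less RNA per cell cannot be told apart.

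**Figure D2:**
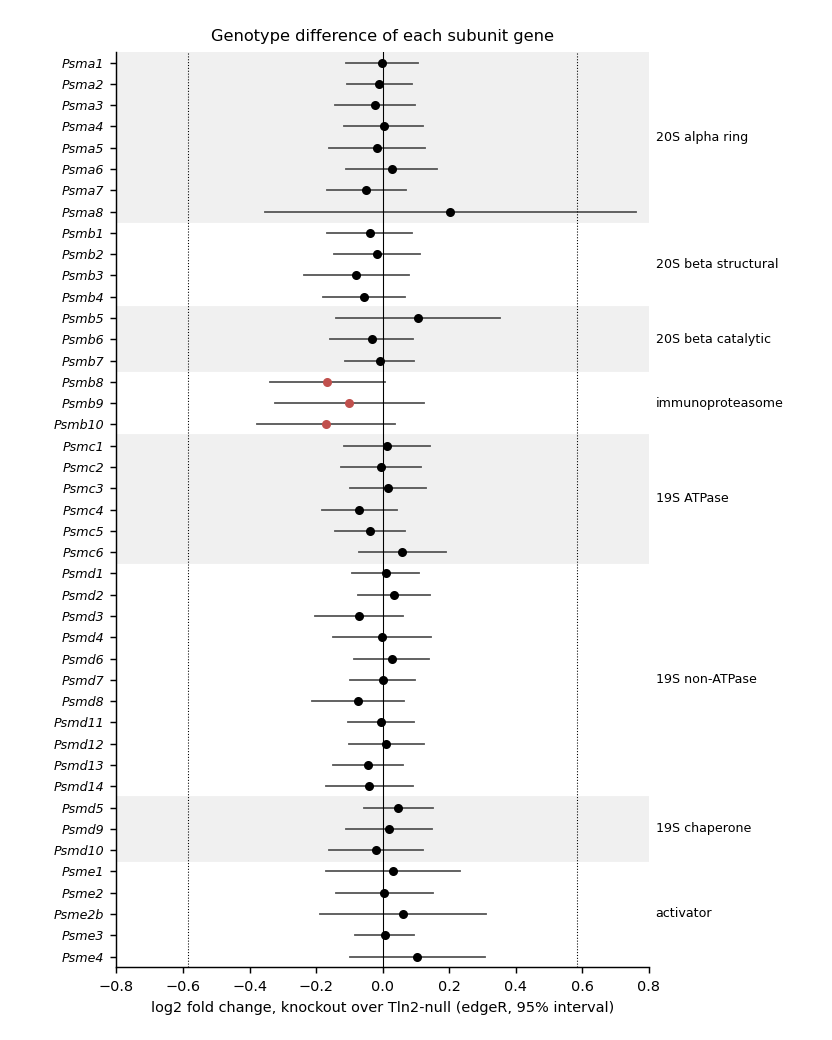
Log2 fold change of each member, knockout over Tln2-null, with its 95% interval from edgeR (16 mice). Dotted lines mark 1.5-fold in either direction and red points the immunoproteasome genes; every interval but that of Psma8 stays between the dotted lines, and the points of Psmb8, Psmb9 and Psmb10 lie at -0.17, -0.10 and -0.17.

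The 3 immunoproteasome genes had lower means in knockout ventricles, and none passed. Psmb8 ranged from 16.04 to 23.2 CPM in knockout (median 18.7) and from 17.9 to 23.8 CPM in Tln2-null ventricles (median 22.8). The ranges overlapped, although 6 of 8 knockout mice lay below the Tln2-null mean. Its mean was 19.4 ± 2.38 CPM in knockout and 21.8 ± 2.12 CPM in Tln2-null ventricles (SD, n = 8 each). The log2 fold change was -0.17 ± 0.08 (SE), with the lowest p of all members in edgeR (adjusted p = 0.935). Without the 4 females that held Y-linked counts, the log2 fold change of Psmb8 was -0.05 (adjusted p = 0.994). Knockout replicate 2, with 23.2 CPM, is then the only knockout female. The antisense gene Gm20496 covers 14.7 percent of the exon bases of Psmb8. Libraries came from a directional kit, but the sources used here do not say whether counting used strand, so reads of such a pair may not be told apart.

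Psmb10 ranged from 58.3 to 76.3 CPM in knockout (median 63.3) and from 52.8 to 89.2 CPM in Tln2-null ventricles (median 76.2). Both the lowest and the highest mouse were Tln2-null. Its log2 fold change was -0.17 ± 0.10 (SE; edgeR adjusted p = 0.935), with 7 of 8 knockout mice below the Tln2-null mean. Psmb9 ranged from 7.40 to 10.7 CPM in knockout (median 9.51) and from 7.53 to 11.99 CPM in Tln2-null ventricles (median 10.7). Its log2 fold change was -0.10 ± 0.11 (SE; adjusted p = 0.946), and again 7 of 8 knockout mice lay below the Tln2-null mean. Such counts were not particular to these genes. Psma7 and Psmd8 also had 7 of 8 knockout mice below. Psmb3, Psmb4, Psmb7, Psmc4 and Psmc5 had 6 of 8, the count of Psmb8. The share over all genes tested was not taken. Psmb9 shares a bidirectional promoter region with Tap1, which encodes a subunit of the peptide transporter, and 5.8 percent of its exon bases overlap Tap1 on the other strand.

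Of the constitutive counterparts, Psmb5 had a higher mean and Psmb6 and Psmb7 lower means in knockout ventricles, and none passed. Psmb5 ranged from 53.5 to 98.0 CPM in knockout (median 77.5) and from 53.1 to 93.3 CPM in Tln2-null ventricles (median 73.1), a log2 fold change of 0.11 ± 0.12 (SE; adjusted p = 0.946). Psmb5 varied more between mice than its counting error: the SD of its log2 level was 0.27, where counting alone would give 0.041. The same held for other members, such as Psme4 (0.22 against 0.015), Psme1 (0.20 against 0.026) and Psmb7 (0.082 against 0.023). Of the 50-base windows of Psmb5, 57.1 percent also occur in other annotated genes, mainly Gm3375 (49.4 percent), so its counts are uncertain. Psmb6 ranged from 128 to 165 CPM in knockout (median 146) and from 134 to 164 CPM in Tln2-null ventricles (median 148), a log2 fold change of -0.03 ± 0.06. Psmb7 ranged from 217 to 271 CPM in knockout (median 242) and from 227 to 270 CPM in Tln2-null ventricles (median 239), a log2 fold change of -0.01 ± 0.05. Nek6 overlaps 11.8 percent of the exon bases of Psmb7 on the other strand.

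**Figure D3:**
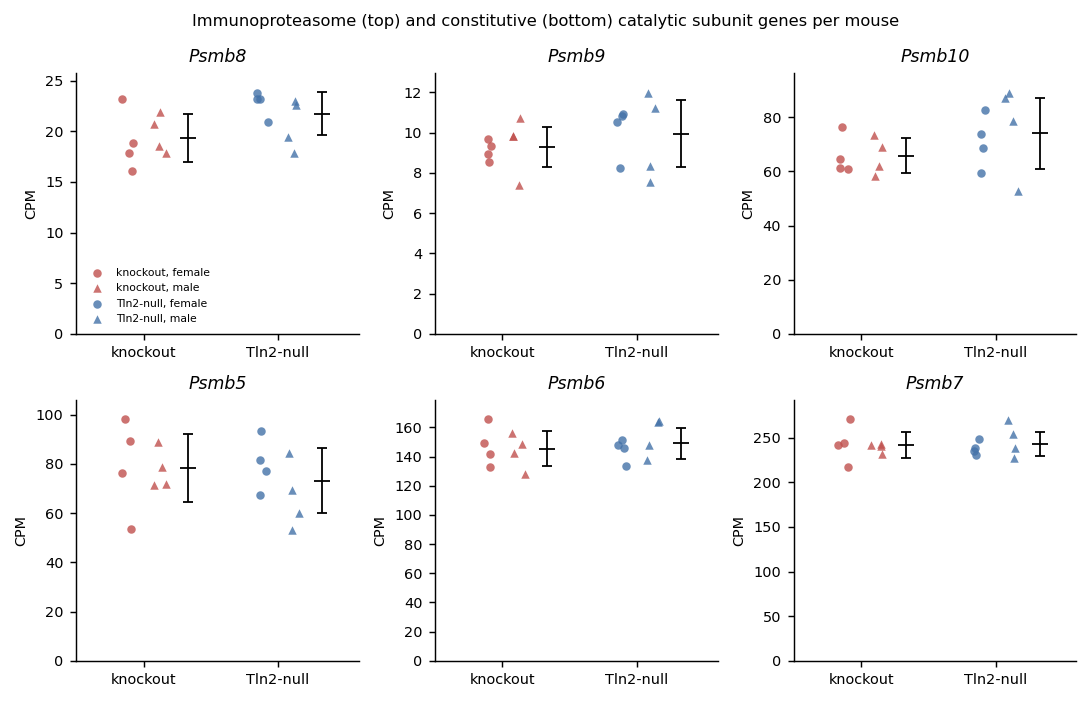
CPM of the 3 immunoproteasome genes (top) and the constitutive subunit that each replaces (bottom) in every mouse. Circles are females and triangles males, and bars give the mean ± SD of 8 knockout and 8 Tln2-null mice; the genotypes overlap in all 6 genes, with Psmb8 at 19.4 and Psmb10 at 65.8 CPM in knockout mice, against 21.8 and 74.1 CPM in Tln2-null mice.

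The ratio of each inducible subunit to the one it replaces needs no scaling between libraries and was compared within each mouse. Psmb8 over Psmb5 per length ran from 9.04 to 24.0 percent in knockout (median 12.7) and from 11.7 to 21.2 percent in Tln2-null ventricles (median 16.9). On the log2 scale the difference was -0.27, which did not pass an exact two-sided permutation test within sexes (p = 0.175, adjusted over the 3 ratios 0.263), with 6 of 8 knockout mice below the Tln2-null mean. Without the 4 females that held Y-linked counts it was -0.10. In that run the only knockout female is replicate 2, which had the highest ratio (24.0 percent). The counts of Psmb5, the denominator, are uncertain, as given above. Psmb10 over Psmb7 ran from 21.4 to 28.0 percent in knockout (median 24.2) and from 20.6 to 33.04 percent in Tln2-null ventricles (median 27.0). Its log2 difference was -0.15 (exact permutation p = 0.147, adjusted 0.263), with 7 of 8 knockout mice below. Psmb9 over Psmb6 ran from 2.94 to 4.94 percent in knockout (median 3.73) and from 2.99 to 4.77 percent in Tln2-null ventricles (median 4.23). Its log2 difference was -0.05 (exact permutation p = 0.672). None of the 3 ratios differed between genotypes beyond the spread between mice.

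No other 20S core gene passed the test. In the alpha ring, 3 of 8 members were higher and 5 lower in knockout ventricles, with a median log2 fold change of -0.01. Of these, 7 had differences between -0.05 and 0.03, while the germ cell form Psma8 had 0.20 ± 0.27 (SE) at 1.21 ± 0.379 CPM in knockout and 1.04 ± 0.432 CPM in Tln2-null ventricles. The 4 structural beta subunits (Psmb1 to Psmb4) had log2 differences from -0.08 to -0.02, all lower in mean, and none passed. Of the 50-base windows, 55.8 percent in Psmb3 and 54.5 percent in Psma5 are shared with other genes, so these counts are also uncertain.

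In the 19S particle, 3 of 6 ATPase genes were higher and 3 lower, with a median of 0.004. Psmc4, one of these ATPases, ranged from 89.8 to 113 CPM in knockout (median 101) and from 94.2 to 114 CPM in Tln2-null ventricles (median 106). Its log2 fold change was -0.07 ± 0.05 (SE; adjusted p = 0.942). Among the 11 other subunits, 5 were higher and 6 lower, with a median of -0.003. The group includes the ubiquitin receptor Psmd4, the deubiquitinase Psmd14 and the large scaffold subunits Psmd1 and Psmd2. Psmd3, a scaffold subunit of the lid, ranged from 125 to 173 CPM in knockout (median 150.1) and from 149 to 178 CPM in Tln2-null ventricles (median 162). Psmd8, a lid subunit, ranged from 113 to 145 CPM in knockout (median 129) and from 119 to 164 CPM in Tln2-null ventricles (median 132). Both had a log2 fold change of -0.07 (adjusted p = 0.942), and their ranges overlapped. The 3 assembly chaperones lay between -0.02 and 0.05.

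All 5 activator genes had slightly higher means in knockout ventricles, and none passed. Psme4, which encodes the single-chain activator PA200, ranged from 414 to 729 CPM in knockout (median 589) and from 475 to 676 CPM in Tln2-null ventricles (median 539). Its log2 fold change was 0.10 ± 0.10 (SE; adjusted p = 0.946). It became -0.01 without the 4 females that held Y-linked counts, where replicate 2 is the only knockout female left. That mouse lay at -0.46 from the mean of Psme4 over all mice on the log2 scale. The interferon-inducible PA28 pair, Psme1 and Psme2, had 0.03 ± 0.10 and 0.01 ± 0.07. Psme1 ranged from 141 to 225 CPM in knockout (median 191) and from 151 to 224 CPM in Tln2-null ventricles (median 178). Psme2 ranged from 61.7 to 82.1 CPM in knockout (median 69.5) and from 61.0 to 77.9 CPM in Tln2-null ventricles (median 70.8). Psme3, which forms the nuclear PA28 ring, had 95.2 ± 4.30 CPM in knockout and 94.8 ± 4.01 CPM in Tln2-null ventricles and the smallest spread of all members (SD of the log2 level 0.060). Psme2b, a near copy of Psme2, ranged from 4.44 to 7.81 CPM in knockout and from 4.48 to 6.83 CPM in Tln2-null ventricles, and 68.7 percent of its 50-base windows are also in Psme2. Of the 50-base windows of Psme2, 59.3 percent are in Psme2b, so the counts of both are uncertain, and with them the relations and the trend given for Psme2.

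Individual mice differed in the common level of the members. Knockout replicate 2, a female, had 3 of 43 members above their own mean over all mice, and its members lay 0.17 below it on the log2 scale on average. Knockout replicate 5, also a female, had 40 of 43 above (0.13 on average). Among Tln2-null mice, the males numbered 3 and 5 had 37 of 43 members above each, and male 1 had 9. The highest and the lowest mouse of the set by this count were thus both knockout females. The members' common level in a mouse (mean deviation over 43 genes) was -0.004 ± 0.088 in knockout and 0.004 ± 0.071 in Tln2-null mice (SD, n = 8 each).

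Over the 16 mice, the median SD of the log2 level was 0.11 over members and 0.18 over all genes tested. Among genes at 20 CPM or more the median was 0.14, and 33 of 39 members at that level lay below it. The members that varied most were Psma8 (0.51), Psmb5 (0.27), Psme2b (0.22), Psmb10 (0.22), Psme4 (0.22), Psmb9 (0.21), Psme1 (0.20) and Psmb8 (0.18). All 3 immunoproteasome genes are thus among the 8 widest. Counting alone would give 0.33 for Psma8, 0.11 for Psmb9, 0.078 for Psmb8 and 0.042 for Psmb10.

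**Figure D4:**
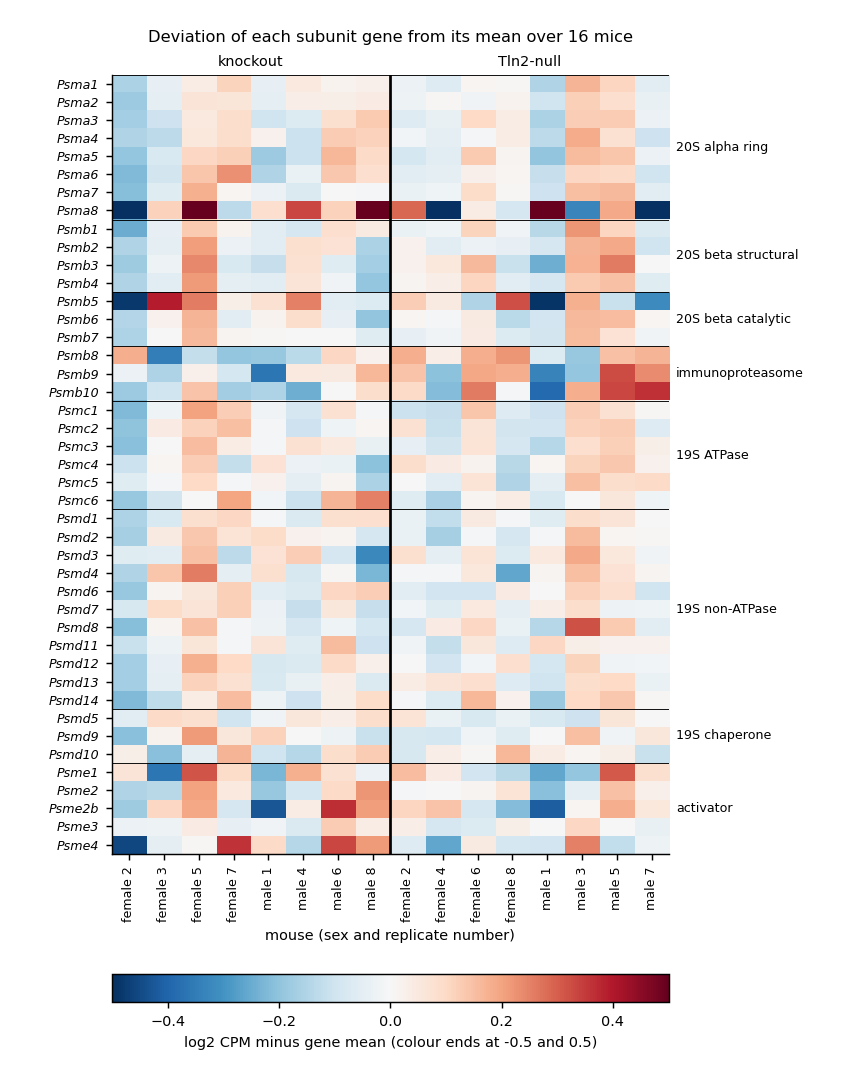
Deviation of the log2 CPM of each member (rows, by role) from its mean over 16 mice, with a column for each mouse, knockout left of Tln2-null; colours end at -0.5 and 0.5. Knockout female 2 is below the mean in 40 of 43 genes, and knockout female 5 is above it in 40 of 43.

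The interferon-inducible members were compared with each other across the 16 mice. Of 13 relations tested on log2 CPM (Pearson's r and Spearman's rho, permutation tests with 100000 resamples), 6 passed for r after adjustment over the 13, and 0 passed for rho. Psmb9 went with Psmb10 (r = 0.72, adjusted p = 0.0215; rho = 0.66, adjusted p = 0.0617), with Psme2 (r = 0.69, adjusted p = 0.0215; rho = 0.63, adjusted p = 0.0617) and with Psmb8 (r = 0.68, adjusted p = 0.0215; rho = 0.61, adjusted p = 0.0617) by this permutation test. The other relations past the threshold for r were Psmb10 with Psme2 (0.60), Psme1 with Psme2 (0.60) and Psmb9 with Psme1 (0.58). Without the 2 mice farthest from the median of the first gene, the r of Psmb9 with Psmb10 was 0.64, with Psme2 0.49 and with Psme1 0.40, and that of Psmb8 with Psmb9 was 0.69. None of the 13 passed after adjustment in the remaining 14 mice. Psmb8 with Psmb9 did not pass there although its r did not fall (adjusted p = 0.095, permutation test). With fewer mice and a narrower range of the first gene, this run cannot tell whether the calls rest on the mice left out. Points share library, scaling and any common deviation of a mouse.

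Within groups of 8 mice, Psmb9 and Psmb10 had r = 0.46 in knockout and 0.80 in Tln2-null mice, 0.79 in females and 0.71 in males. Psmb8 and Psmb9 had 0.53 in knockout and 0.83 in Tln2-null mice, 0.68 in females and 0.80 in males. Psmb9 and Psme2 had 0.72 in knockout and 0.84 in Tln2-null mice, but 0.34 in females and 0.84 in males. Whether these values differ between the groups was not tested. After removal of a linear term for the number in the library titles, a choice made after seeing the data, these 3 relations had r = 0.69, 0.75 and 0.51.

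With Ptprc, the pan-leukocyte gene CD45, no relation passed: r was 0.32 for Psmb8, -0.15 for Psmb9 and -0.43 for Psmb10 (permutation test, adjusted p = 0.252, 0.579 and 0.184). Within groups of 8 mice, Psmb8 and Ptprc had r = 0.73 in knockout and 0.14 in Tln2-null mice, 0.37 in females and 0.16 in males. Psmb9 and Ptprc had 0.11 in knockout and -0.26 in Tln2-null mice, -0.22 in females and -0.14 in males. Psmb10 and Ptprc had -0.13 in knockout and -0.56 in Tln2-null mice, -0.71 in females and -0.22 in males. Whether these differ between the groups was not tested. Ptprc itself averaged 15.6 ± 2.83 CPM in knockout and 14.96 ± 3.17 CPM in Tln2-null ventricles (SD, n = 8 each).

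**Figure D5:**
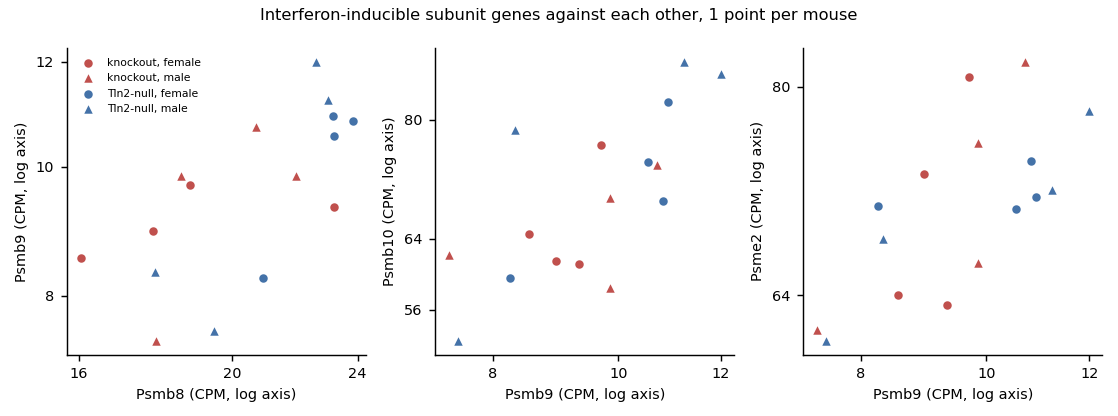
CPM of interferon-inducible subunit genes against each other on log axes, 1 point per mouse (8 knockout and 8 Tln2-null; circles are females, triangles males). Psmb9 had r = 0.68 with Psmb8, 0.72 with Psmb10 and 0.69 with Psme2.

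Between the sexes, no member passed in edgeR (0 of 43), where 0.0871 percent of the genes tested passed (12 genes). At an unadjusted p under 0.05 there were 0 members and 508 genes (3.69 percent). DESeq2 and limma called 0 members each. The number of all genes that DESeq2 called is given in the last section, and that of limma is not given here. In females 12 members were higher and 31 lower than in males, with a median log2 difference of -0.02. Of all genes tested, 49.6 percent were higher and 50.4 percent lower in females. Psme4 had the lowest p. It ranged from 414 to 729 CPM in females and from 514 to 716 CPM in males, a log2 fold change of -0.12 ± 0.10 (SE; adjusted p = 0.9998). Psmb5 ranged from 53.5 to 98.0 CPM in females and from 53.1 to 88.9 CPM in males (0.14 ± 0.12). Psmd11, a lid subunit, averaged 96.0 ± 4.55 CPM in females and 99.96 ± 5.83 CPM in males (SD, n = 8 each; log2 fold change -0.06). The ATPase gene Psmc6 had 143 ± 12.4 CPM in females and 149.7 ± 13.1 CPM in males (-0.06), and Psmd2 had 361 ± 27.3 CPM in females and 374 ± 18.9 CPM in males (-0.05). The ranges of these 5 genes overlapped between the sexes.

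The immunoproteasome genes were close in both sexes. Psmb8 averaged 20.9 ± 2.97 CPM in females and 20.3 ± 2.09 CPM in males, Psmb9 9.63 ± 1.04 CPM in females and 9.61 ± 1.71 CPM in males, and Psmb10 68.5 ± 8.43 CPM in females and 71.3 ± 13.2 CPM in males (SD, n = 8 each). The ratios to their counterparts differed by -0.10 (Psmb8 over Psmb5), 0.04 (Psmb9 over Psmb6) and -0.03 (Psmb10 over Psmb7) on the log2 scale (exact permutation within genotypes, adjusted p = 0.755 each).

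Whether the genotype difference depended on sex was tested as the difference between the genotype effect in females and in males. No gene passed in edgeR (0 of 13775, 0 percent), and 0 members had an unadjusted p under 0.05, against 4.27 percent of the genes tested. DESeq2 called 0 genes. In females 24 members were higher and 19 lower in knockout mice (median 0.02), and in males 13 were higher and 30 lower (median -0.03). Of all 13775 genes tested, 6888 were higher and 6887 lower in females, and 6682 higher and 7093 lower in males. The lowest p among members was that of Psmd4, the ubiquitin receptor, with a difference of 0.22 ± 0.13 on the log2 scale (SE; adjusted p = 0.980). Psmd4 had 136, 166, 180.5 and 147 CPM in the 4 knockout females, against 150.1, 150.3, 157 and 126 CPM in the 4 Tln2-null females. It had 160, 143, 152 and 129 CPM in the knockout males, against 153, 168, 159 and 152 CPM in the Tln2-null males. The groups overlapped in both sexes. Psmc5, an ATPase gene, had a difference of 0.15 ± 0.10 and Psmd7, a lid subunit that pairs with Psmd14, 0.14 ± 0.09.

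Within females, Psmb8 was the only member with an unadjusted p under 0.05 (1 of 43). In the same contrast 456 of the 13775 genes tested had such a p (3.31 percent), so the share among members was not above that of all genes. It had 23.2, 16.04, 18.8 and 17.8 CPM in knockout females, against 23.2, 20.9, 23.2 and 23.8 CPM in Tln2-null females, and its log2 fold change was -0.26 ± 0.12 (SE; adjusted p = 0.9998 in edgeR). Of the knockout females, 3 lay below every Tln2-null female and 1 lay among them, and those 3 are the ones that held Y-linked counts. In males it had 17.9, 18.6, 21.9 and 20.7 CPM in knockout mice, against 19.5, 17.9, 22.6 and 22.99 CPM in Tln2-null mice, a log2 fold change of -0.07 ± 0.12. The test of the difference between the sexes did not pass (-0.19 ± 0.16; adjusted p = 0.980).

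The number at the end of the library titles went with many genes, although the sources used here do not say what it stands for. The lowest numbers, 1 and 2, are Tln2-null mice, and the highest, 15, 16 and 18, are knockout mice. The number is thus not balanced between genotypes and is partly confounded with genotype. In a model with genotype and sex, 874 genes had a linear trend with it (6.34 percent of those tested). Among members, 2 of 43 passed and 9 of 43 had an unadjusted p under 0.05, against 6.34 and 24.2 percent of the genes tested. Both shares lay below those of all genes. Of the 2 that passed, Psme2 had the lower p (adjusted p = 0.0309, edgeR). In the order of the number, Psme2 measured 61.0, 70.2, 61.7, 63.4, 68.0, 70.4, 64.0, 77.9, 71.1, 66.2, 80.9, 71.6, 73.9, 75.3, 72.8 and 82.1 CPM, with the lowest level at the lowest number and the highest at the highest. Psmc6 passed as well (adjusted p = 0.0492), with 138.5 CPM in the library numbered 1 and 174 CPM in that numbered 18. All 3 immunoproteasome genes rose with the number, 2 of them with an unadjusted p under 0.05, and 0 passed (lowest edgeR adjusted p = 0.0946). Of the 43 members 35 rose and 8 fell, and of the 13775 genes tested 6776 rose. With the number as a covariate, the genotype difference was -0.19 for Psmb8, -0.19 for Psmb9 and -0.23 for Psmb10, and 0 members passed.

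Genes that serve the proteasome were read from lists chosen with earlier results of these data known, and none of their genes passed between genotypes in edgeR. Of 17 measured associated factors and assembly genes, 9 were higher and 8 lower in knockout ventricles (median 0.01). The ubiquitin receptor gene Adrm1 had 85.1 ± 10.1 CPM in knockout and 94.4 ± 8.04 CPM in Tln2-null ventricles (log2 fold change -0.15, unadjusted p = 0.0633). The proteasome-bound ligase gene Ube3c had 92.6 ± 5.32 CPM in knockout and 86.9 ± 3.67 CPM in Tln2-null ventricles (0.09, unadjusted p = 0.0571). Pomp, the maturation factor of the 20S core, had 114 ± 9.07 CPM in knockout and 113 ± 9.75 CPM in Tln2-null ventricles.

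The transcription factor NRF1, encoded by Nfe2l1, drives proteasome genes when proteasome activity falls. Its transcripts had 697 ± 43.6 CPM in knockout and 707 ± 44.0 CPM in Tln2-null ventricles. Of the 9 genes of this axis, 4 were higher and 5 lower (median -0.02), and Mafk, a partner of NRF1, was at -0.15 (adjusted p = 0.935). Of 15 ubiquitin and shuttle genes, 6 were higher and 9 lower (median -0.02), with Ubb at -0.02. By sex, 12 of these 15 were higher in knockout females (median 0.04) and 3 of 15 in knockout males (median -0.05). Each was set against Tln2-null mice of the same sex, and 0 passed in either. The test of the difference between the sexes passed for 0 of the 15 (edgeR adjusted p 0.980 to 0.997). Of the 4 knockout females, 3 held Y-linked counts. Of all 13775 genes tested, 6888 were higher in knockout females and 6682 in knockout males. Of 13 muscle ubiquitin ligases, 9 were higher and 4 lower (median 0.04). Trim63, which encodes the atrophy ligase MuRF1, had 319 ± 32.1 CPM in knockout and 288 ± 27.9 CPM in Tln2-null ventricles (log2 fold change 0.15, adjusted p = 0.935). Fbxo32, which encodes atrogin-1, had 312 ± 49.0 CPM in knockout and 280.5 ± 121 CPM in Tln2-null ventricles.

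Interferon and antigen processing genes were read beside Psmb8, Psmb9 and Psmb10, since these share inducers. Of 22 such genes, 19 were lower and 3 higher in knockout ventricles (median -0.12), 0 passed and 4 had an unadjusted p under 0.05, against 5.08 percent of all genes tested. In females 21 were lower and 1 higher (median -0.19), and in males 12 were lower and 10 higher (median -0.01). Of all 13775 genes tested, 6887 were lower in females and 7093 in males. Of the 4 knockout females, 3 are among those that held Y-linked counts. None of the 22 passed the test of the difference between the sexes (edgeR adjusted p 0.980 to 0.998). The lowest p values were those of Tapbpl, a peptide editor of MHC class I (-0.21), the chemokine gene Cxcl10 (-0.89), the interferon-induced GTPase gene Ifi47 (-0.34) and the peptide transporter subunit Tap2 (-0.16), with adjusted p between 0.926 and 0.935. Tap2 had 48.9 ± 4.91 CPM in knockout and 54.6 ± 5.56 CPM in Tln2-null ventricles. Cxcl10 was near the detection floor (0.329 ± 0.135 CPM in knockout and 0.633 ± 0.484 CPM in Tln2-null ventricles).

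Cell type markers differed between genotypes in mean, and their part in the results above was not tested. All 8 fibroblast markers were lower in knockout ventricles (median -0.43), and 0 passed. Of these, 5 had an unadjusted p under 0.05 in edgeR, against 5.08 percent of all genes tested. The sum of the fibroblast markers ranged from 1160 to 2247 CPM in knockout and from 1349 to 2636 CPM in Tln2-null ventricles. All 8 cardiomyocyte markers were higher in mean over both sexes (median 0.07), and 0 passed. Of these, 2 had an unadjusted p under 0.05 in edgeR, against the same 5.08 percent. In females 3 were higher and 5 lower (median -0.04), and in males all 8 were higher (median 0.18). Of the 13775 genes tested, 6888 were higher in females and 6682 in males. In males 5 of the 8 had an unadjusted p under 0.05 in edgeR, against 836 of the 13775 genes. None of the 8 passed the test of the difference between the sexes. Of 8 tested leukocyte markers, 7 were higher and 1 lower (median 0.05), and the sum of all 10 in the table ranged from 226 to 333 CPM in knockout and from 237 to 281 CPM in Tln2-null ventricles. Among them the T cell genes Cd3e and Cd8a were under 1 CPM on average in both genotypes. Endothelial markers were higher in 5 of 6 genes (median 0.05; sum 1391 to 1700 CPM in knockout and 1359 to 1689 CPM in Tln2-null ventricles), and smooth muscle and pericyte markers in 2 of 6 (median -0.14; sum 1279 to 1599 CPM in knockout and 1228 to 1848 CPM in Tln2-null ventricles). No listed marker was at 0 in every mouse.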

How the data were processed

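Per the labels' protocols, RNA was taken from left ventricles with TRIzol and columns, and the library kit was directional. Tools and build in the submitters' processing notes are DRAGEN, DESeq2 and mm10; the sources used here do not give the counting or the annotation. The authors deposited whole read counts per gene symbol for 16 mice, and a normalized signal for 16405 genes. For the 16384 symbols in both tables, the signal times 1 factor per library gave the deposited counts within 0.001. Genotype and sex came from the labels; replicate numbers follow record order and pair no mice.

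Counts were tested on the whole table with edgeR 4.0.16 in R 4.3.3 (filterByExpr, TMM, quasi-likelihood, genotype and sex as terms; 1 mean per genotype and sex for the interaction), with Benjamini-Hochberg adjustment, called under 0.05. The code was tested on simulated data. SE were worked back from the F statistic. Ratios used counts plus 0.5 and 4900 exchanges within the other factor. DESeq2 1.42.0 and limma 3.58.1 (log2 of the normalized signal plus 1) were alternatives. Transcript lengths, overlaps and shared 50-base windows came from GENCODE M21 (GRCm38), promoters from RefSeq GRCm38.p6 (36 of 43 members matched). All members may be named; per-mouse ranges are given for the catalytic subunits, the activators and the 5 members of lowest p for genotype and sex. Members and lists were chosen with earlier results of these data known. Some planned relations across mice are not reported here.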

Additional observations from a re-analysis of the deposited data

Results flagged for a closer look

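Psmd4, which encodes a ubiquitin receptor of the 19S particle, had 1 low mouse among the Tln2-null mice. Tln2-null replicate 8, a female, measured 126.21 CPM, and the other 7 Tln2-null mice ran from 150.1 to 168 CPM. The gap was 0.574 of the whole range, above the critical value of 0.526 for 8 samples (Dixon). Of 94 groups looked at, this was the only 1 past its critical value, and chance gives about 1 in 20. In the 8 knockout mice, Psmd4 ran from 129 to 180.5 CPM.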

How the results depend on the processing

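No member was called for genotype, sex or their interaction under any alternative run. For genotype over all genes, 1 gene was called with no filter on low counts, 17 by DESeq2, 5 without both mice numbered 8 and 0 to 7 with each mouse left out in turn (against 0); between sexes DESeq2 called 21, against 12. The cause was not tested. Small genotype differences changed sign. With the title number as covariate Psme2b was -0.016, Psme1 -0.010 and Psme2 -0.069. Without the 4 females with Y-linked counts Psme4 was -0.015, Psme3 -0.0043 and Psme2 -0.023. In that run the interaction of Psmd7 was -0.0086 and the members' median interaction -0.14, against 0.03. Its only knockout female is replicate 2, which had 3 of 43 members above their own mean. Without both mice numbered 8, Psme2 was -0.020. With each mouse left out, Psmb7 ran from -0.035 to 0.020, Psme3 from -0.0079 to 0.025, Psme1 from -0.016 to 0.089 and Psme2 from -0.029 to 0.033. The log2 sex ratios without those females were 0.19 for Psmb8/Psmb5 and 0.081 for Psmb10/Psmb7; with each mouse left out they ran from -0.20 to 0.00042 and from -0.075 to 0.023, and Psmb9/Psmb6 from -0.011 to 0.096. Genotype ratios kept their sign and passed under no alternative; with each mouse left out, Psmb8/Psmb5 ran from -0.38 to -0.18, Psmb9/Psmb6 from -0.11 to -0.0022 and Psmb10/Psmb7 from -0.20 to -0.10. Genotype folds that kept their sign but moved over 1.5 times when 1 mouse was left out were those of Psmb9 (-0.15 to -0.050), Psmb5 (0.055 to 0.19), Psmb6 (-0.064 to -0.0032), Psme4 (0.041 to 0.17), Psme2b (0.0079 to 0.12), Psmc4 (-0.096 to -0.043), Psmd3 (-0.10 to -0.029) and Psmd8 (-0.10 to -0.023).

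With exon unions as length, levels were 6.083 (Psmb8), 2.629 (Psmb9), 41.0 (Psmb10), 78.69 (Psmb6) and 70.82 CPM per kilobase (Psmb7), because the lengths differ. Without the 2 mice farthest from the median, r was 0.69 (Psmb8 with Psmb9), 0.64 (Psmb9 with Psmb10), 0.40 (Psmb9 with Psme1), 0.49 (Psmb9 with Psme2), 0.56 (Psmb10 with Psme2) and 0.44 (Psme1 with Psme2), none past the adjusted threshold in 14 mice. Psmb9 with Ptprc was 0.11 within knockout mice and -0.15 over all. Depth limited Psma8 most, where counting alone gives an SD of 0.33 on the log2 scale. No paired analysis was possible because replicate numbers were given in record order and tie no mice together.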
